A study of Mus musculus with 2 samples.

Results

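The genes described here encode alcohol dehydrogenases, aldehyde dehydrogenases, aldo-keto reductases, hydroxysteroid dehydrogenases, retinol dehydrogenases and short-chain dehydrogenases of the Dhrs group. They were chosen by symbol, with earlier results of these data known, as every gene whose symbol begins with Adh, Aldh, Akr, Hsd17b, Hsd3b, Rdh or Dhrs followed by a digit, with 4 genes of retinoic acid metabolism left out (Aldh1a1, Aldh1a2, Aldh1a3 and Dhrs3). The rule gave 74 of the 18194 genes that could be named on the arrays, in 7 families. A gene's level is the normalized log2 value of its brightest probe set, and a level of 5 or less was taken as background.

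The samples were biopsies of wild-type adult mice, 1 from the colon and 1 from the small intestine, and their biotin-labelled total RNA was read on 1 Affymetrix Mouse Genome array per tissue. No treatment, strain or number of animals is given in the labels. The study's methods speak of C57B6 mice, distal colon and jejunum, but for arrays held under another record, so it is not known whether these details apply. With 1 array per tissue there was no replicate, no test and no error between animals, and the text counts genes by a fixed fold of 3 between the arrays.

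These enzymes move hydride between alcohols and carbonyl compounds, with NAD(H) or NADP(H) as the partner. Zinc alcohol dehydrogenases and aldehyde dehydrogenases act in sequence to turn alcohols, ethanol among them, into aldehydes and then acids, whereas aldo-keto reductases mostly run the other way and reduce aldehydes and ketones. The hydroxysteroid and retinol dehydrogenases use the same chemistry to switch steroid hormones, bile acid precursors and vitamin A between active and inactive forms, and the gut epithelium is one of the tissues in which such enzymes meet compounds from food and bacteria.

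The small intestine array carried more signal for some alcohol and retinol dehydrogenases, led by Adh6a, Rdh7 and Hsd17b6. The colon array did so for some aldo-keto reductases and 3-beta hydroxysteroid dehydrogenases, led by Hsd3b3, Akr1b8 and Hsd3b2. Of the 74 genes, 11 (14.9%) were 3-fold or more higher in the small intestine, where 3.46% of all named genes were. In the colon 8 genes (10.8%) passed the same fold, against 3.33% of all named genes. The median difference over the 74 genes was 0 on the log2 scale after values below 5 were raised to 5, and it was 0 over all 18194 genes as well, but this median says little, since 19 of the 74 genes and 7178 of all genes were at background and so set to 0. By family it ranged from -0.77 for the 3-beta hydroxysteroid dehydrogenases to 0.61 for the aldehyde dehydrogenases.

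Background took out a sizeable share of the genes. Above it lay 55 of the 74 on at least 1 array, among them 45 on both arrays, 7 in the small intestine alone and 3 in the colon alone. The other 19 were at background on both, and over all genes 11016 of 18194 were above background on at least 1 array. In tissue RNA, fewer cells of a type and less RNA per cell give the same lower level and cannot be told apart.

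**Figure D1:**
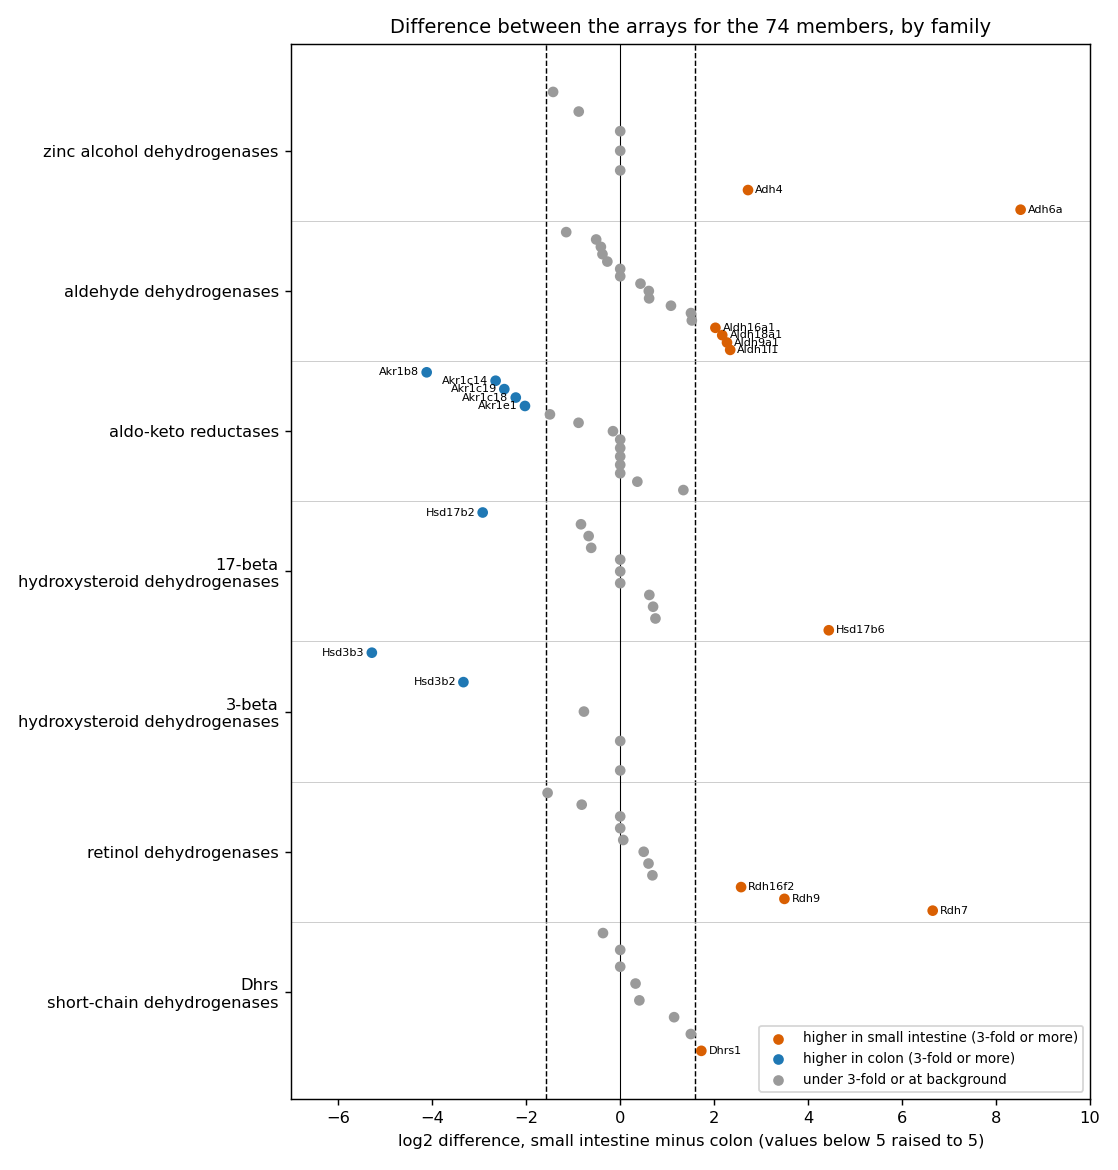
Difference between the small intestine and colon arrays for each of the 74 genes, by family, on the log2 scale with values below 5 raised to 5. Each point is 1 gene on 1 array per tissue, and dashed lines mark 3-fold. All 5 labelled aldo-keto reductases lie on the colon side and all 4 labelled aldehyde dehydrogenases on the small intestine side.

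The families split by direction past 3-fold, but by any difference all except the 3-beta hydroxysteroid dehydrogenases held genes on both sides. Towards the small intestine and the colon lay 10 and 5 aldehyde dehydrogenases, 7 and 2 retinol dehydrogenases and 5 and 1 Dhrs genes. The counts were 2 and 8 for aldo-keto reductases, 2 and 2 for zinc alcohol dehydrogenases and 4 and 4 for 17-beta hydroxysteroid dehydrogenases. Past 3-fold, the zinc alcohol dehydrogenases gave 2 genes of 7 and the aldehyde dehydrogenases 4 of 17, each of them higher in the small intestine. Retinol dehydrogenases gave 3 of 11 and the Dhrs group 1 of 8, again on the small intestine side. Aldo-keto reductases, with 5 of 15, and 3-beta hydroxysteroid dehydrogenases, with 2 of 5, passed the fold on the colon side alone. The 17-beta hydroxysteroid dehydrogenases gave 1 of 11 in each direction. Without probe sets marked as covering several transcripts or as able to bind other transcripts, 1 of the 4 aldehyde dehydrogenases, Aldh16a1, still passed.

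The tissue labels were checked against marker genes, and tissue from outside the gut wall was looked for. Of 10 measured genes of small intestinal enterocytes, 9 were 3-fold or more higher in the small intestine, and of 8 genes of colonocytes 6 were so in the colon. Of 11 genes shared by gut epithelium, 1 passed 3-fold (Vil1, 3.02-fold higher in the small intestine). Exocrine pancreas genes were carried by the colon array, with 10 of 10 measured genes 3-fold or more higher there, a summed linear level of 62549 against 413 and 8 of the 10 at background in the small intestine. Smooth muscle genes were also higher in the colon, 5 of 8 past 3-fold, with a summed linear level of 22324 against 8325. Goblet cell genes gave 3 of 7 past 3-fold, Muc2, Agr2 and Clca1, all towards the colon, with a summed linear level of 188833 against 119007. Fibroblast genes gave 2 of 8 towards the colon and 1 towards the small intestine, and adipocyte genes 1 of 5 towards the small intestine. The part of these cell types in the results on the colon side was not tested. Markers of steroid-producing glands (6 of 6) and of kidney (6 of 6), organs in which several of these enzymes are abundant, were at background on both arrays, as were 7 of 8 squamous epithelium, 6 of 8 stomach and 4 of 6 liver markers. The other 2 liver markers went opposite ways, Cps1, which is also a small intestinal enzyme, 114-fold higher in the small intestine (5.70 in colon and 12.54 in small intestine) and Ttr 15.1-fold higher in the colon (12.37 and 8.46).

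Among the zinc alcohol dehydrogenases, the tissue difference sat in Adh6a and Adh4. Adh6a, a class V alcohol dehydrogenase, read 3.996 in colon and 13.52 in small intestine, a difference of at least 368-fold, where "at least" means that the lower array was at background and was counted at the level of 5. Adh4, the class II enzyme known from liver, read 2.37 in colon and 7.72 in small intestine, which is at least 6.59-fold. Both were thus above background in the small intestine alone.

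The widely expressed classes were bright on both arrays and differed by less than 3-fold. Adh1, the class I enzyme that oxidises ethanol and retinol, read 13.30 in colon and 12.42 in small intestine. Adh5, the class III enzyme that clears formaldehyde bound to glutathione, read 13.18 and 11.75, or 2.69-fold higher in the colon. Adh7, the class IV retinol-oxidising enzyme of the stomach, and Adh6b and Adh6-ps1 were at background on both arrays, between 2.37 and 4.47.

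The retinol dehydrogenases held the next largest difference. Rdh7, a microsomal enzyme that oxidises retinols and androgens, read 3.36 in colon and 11.65 in small intestine, at least 100-fold. Rdh9, of the same subgroup, read 8.77 and 12.27, an 11.3-fold difference between levels that were both above background. Rdh16f2, a related gene, read 3.10 and 7.57, at least 5.95-fold. All of these were higher in the small intestine.

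Rdh16, a close relative of Rdh7 and Rdh9, differed in the other direction and fell just short of the fold, with 6.87 in colon and 5.33 in small intestine, or 2.92-fold. Rdh14 and Rdh10, which act on retinal and retinol in many tissues, were under 3-fold, Rdh14 with 11.01 in colon and 10.19 in small intestine, and Rdh10 with 8.73 and 9.41. On its other probe set Rdh10 read 7.35 and 6.24, the opposite direction. Rdh5, the eye's enzyme for cis-retinol, was near background on both arrays (5.04 and 5.10), and Rdh12, known from photoreceptors, and Rdh1 were below it, between 3.17 and 3.52. The other 2 genes, Rdh11 and Rdh13, were under 3-fold.

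Hsd17b6 and Hsd17b2 pulled the 17-beta hydroxysteroid dehydrogenases in opposite directions. Hsd17b6, which oxidises androgens and retinols and belongs by sequence with the Rdh7 group, read 3.11 in colon and 9.44 in small intestine, at least 21.7-fold. Hsd17b2, which inactivates estradiol and testosterone, read 11.78 in colon and 8.86 in small intestine, 7.61-fold higher in the colon. The other 6 genes above background differed by less than 3-fold.

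Of these, Hsd17b11, an enzyme of lipid droplets, read 12.05 in colon and 12.75 in small intestine. Hsd17b4, which works in peroxisomal beta-oxidation, read 11.24 and 12.00. Hsd17b12, which elongates fatty acids, read 10.83 and 11.45 on its brightest probe set but 7.60 and 5.85 on the other, so that its probe sets stood on opposite sides, the second past 3-fold towards the colon. Hsd17b1 and Hsd17b3, which make estradiol in the ovary and testosterone in the testis, were at background together with Hsd17b14, between 2.58 and 4.79.

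The 3-beta hydroxysteroid dehydrogenases gave the largest difference on the colon side. Hsd3b3 read 11.18 in colon and 5.89 in small intestine, 39.0-fold higher in the colon. Hsd3b2 read 8.34 and 2.78, at least 10.1-fold. In this enzyme class, members convert delta-5 steroids such as pregnenolone to their delta-4 forms. Hsd3b7, which acts on bile acid precursors instead, differed by 1.71-fold, with 8.16 in colon and 7.39 in small intestine. Hsd3b1, the form of gonads and adrenal gland, and Hsd3b5 of male liver were at background, between 2.67 and 2.86.

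These similar genes are hard to separate by hybridization. The brightest Hsd3b3 probe set is of a kind that can bind other transcripts, and the other Hsd3b3 probe set read 6.28 in colon and 2.36 in small intestine, at least 2.44-fold. A probe set assigned to Hsd3b6, Hsd3b3 and Hsd3b2 together, which was not counted, read 11.78 and 6.37, 42.6-fold higher in the colon. The direction was therefore the same on all of these probe sets, but how the signal divides among the Hsd3b genes is uncertain.

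In the aldo-keto reductases, 5 genes were higher in the colon by more than 3-fold. Akr1b8, an aldose reductase-like enzyme that reduces aliphatic and aromatic aldehydes, read 10.001 in colon and 5.88 in small intestine, a 17.4-fold difference. Akr1c14, a 3-alpha hydroxysteroid dehydrogenase, read 12.22 and 9.57, or 6.28-fold. Akr1c19 read 12.43 and 9.97, or 5.53-fold. With Akr1e1, 4 of the 5 were above background in both tissues and differed in amount.

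Akr1c18, which inactivates progesterone, was the exception and lay above background in the colon alone, with 7.22 there and 3.59 in small intestine, at least 4.67-fold. Akr1e1, an anhydrofructose reductase, read 9.91 and 7.88, or 4.08-fold, but its other probe set was at background on both arrays (4.71 and 3.37). Akr1c13 and Akr1c12 were higher in the colon by less than the fold. Akr1c13 read 12.98 in colon and 11.48 in small intestine (2.82-fold), and Akr1c12 read 11.20 and 10.31 (1.85-fold). A probe set shared by both genes, which was not counted, read 13.49 and 11.63, 3.64-fold higher in the colon.

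Not every aldo-keto reductase lay on that side. Akr1a1, the general aldehyde reductase, read 15.22 in colon and 15.06 in small intestine. Akr7a5, which reduces aflatoxin aldehyde and succinic semialdehyde, read 10.26 and 11.61, 2.54-fold higher in the small intestine. Akr1b10 read 5.11 and 5.47, close to background. At background on both arrays were Akr1c6 and Akr1d1, enzymes of liver steroid metabolism, the kidney-associated Akr1c21, and Akr1c20 and Akr1cl, between 2.67 and 4.80.

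The 4 aldehyde dehydrogenases past 3-fold were all above background on both arrays, and none of them is chiefly an acetaldehyde enzyme. Aldh1l1, a folate enzyme that oxidises formyltetrahydrofolate, read 6.98 in colon and 9.32 in small intestine (5.06-fold). Aldh9a1, which makes a precursor of carnitine, read 11.58 and 13.85 (4.83-fold). Aldh18a1, which makes the pyrroline carboxylate from which proline, ornithine and citrulline are derived, read 9.41 and 11.58 (4.50-fold). Aldh16a1, a large member of the family, read 7.07 and 9.10 (4.07-fold). The calls of Aldh1l1 and Aldh9a1 rest on probe sets marked as covering several transcripts. That of Aldh18a1 rests on a probe set of a kind that can bind other transcripts. Without sets of both kinds the log2 difference of Aldh1l1 went from 2.34 to 0, that of Aldh18a1 from 2.17 to 0.76, and Aldh9a1 had no probe set left.

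The acetaldehyde enzymes of mitochondria differed less and in opposite directions. Aldh2 read 11.15 in colon and 10.004 in small intestine, 2.22-fold higher in the colon. Aldh1b1 read 11.23 and 12.31, 2.11-fold higher in the small intestine. Above background on 1 array alone and short of the fold were Aldh3b1 (4.61 in colon and 6.52 in small intestine, at least 2.88-fold), Aldh4a1 of proline breakdown (4.94 and 6.51, at least 2.84-fold) and, on the colon side, Aldh3b2 (5.51 and 4.56, at least 1.43-fold). Aldh3a1, the aldehyde dehydrogenase of the cornea, and Aldh8a1 were at background, between 3.25 and 3.45, and the other members were under 3-fold.

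Dhrs1 was the Dhrs gene past the fold, with 8.26 in colon and 9.98 in small intestine, 3.31-fold. Dhrs4, a peroxisomal reductase of retinal and other carbonyls, stood just below it at 9.58 and 11.08 (2.83-fold). Dhrs11 read 9.29 and 10.44, also higher in the small intestine and under 3-fold. Dhrs2 and Dhrs7c were at background, between 1.89 and 2.01.

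**Figure D2:**
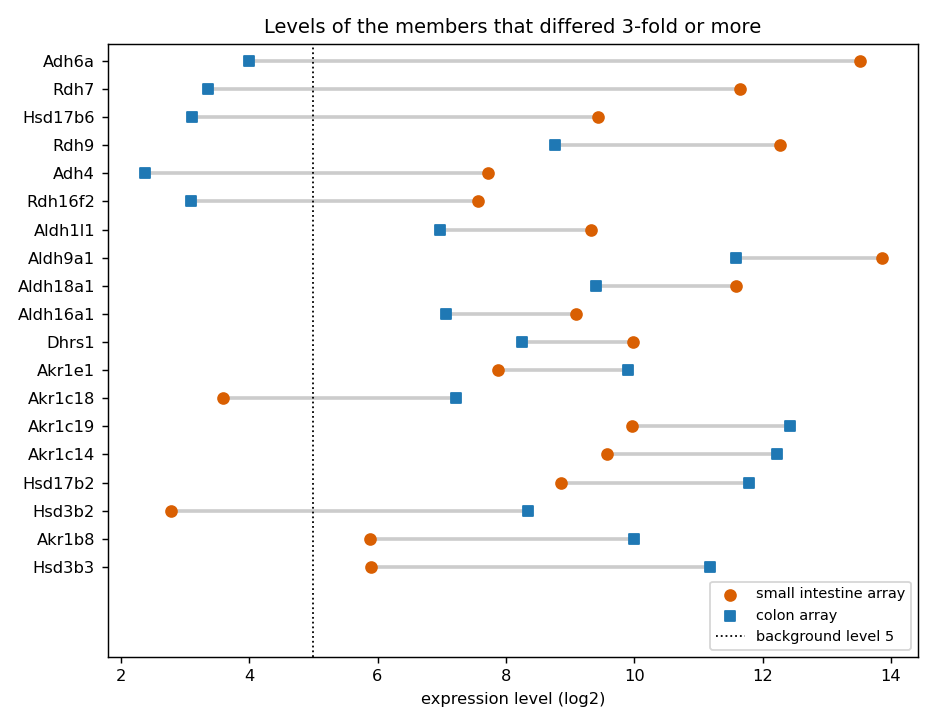
Levels on the colon array (blue squares) and the small intestine array (orange circles) of the 19 genes that differed by 3-fold or more, on the log2 scale, with the background level of 5 dotted. In the small intestine Adh6a stands at 13.52 against 3.996 in the colon, and in the colon Hsd3b3 stands at 11.18 against 5.89.

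Many of the genes described here are neighbours, both among those past 3-fold and among those under it. Up to 9 other genes lay between neighbours in a run, and the 4 runs with at least 4 of the genes are described. Whether genes past 3-fold were neighbours more often than the others was not tested. In the gene order of the RefSeq annotation of mouse assembly GRCm38.p6, a run on chromosome 10 holds Rdh1, Rdh9, Rdh16, Rdh16f2, Rdh7 and Hsd17b6, and 4 of these 6 passed 3-fold towards the small intestine and 0 towards the colon. Within it Rdh16 read higher in the colon and Rdh1 was at background, so the run did not move as 1 block. On chromosome 13 lie 8 Akr1c genes and Akr1e1, and 4 of these 9 passed towards the colon and 0 towards the small intestine, with Akr1c6, Akr1c20 and Akr1c21, which lie next to each other, at background.

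The other 2 of these runs lie on chromosome 3. Of Hsd3b5, Hsd3b2, Hsd3b3 and Hsd3b1, the inner pair passed towards the colon and the outer pair was at background. Of the 7 Adh genes, Adh6a and Adh4 passed towards the small intestine, while Adh1 next to Adh6a and Adh5 next to Adh4 read higher in the colon by less than 3-fold. Shorter runs, of 2 or 3 genes, held 2 genes past 3-fold. These were Akr1b8, next to Akr1b10 on chromosome 6, and Aldh9a1 on chromosome 1, with 9 genes between it and Hsd17b7. Within the longer runs, Rdh9 and Hsd3b3 were shown by probe sets of a kind that can bind other transcripts, and without such sets Hsd3b3 was under 3-fold and Rdh9 was not measured. Adh5 was shown by a probe set that covers several transcripts, and its other probe set was at background on both arrays (3.91 and 3.81).

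**Figure D3:**
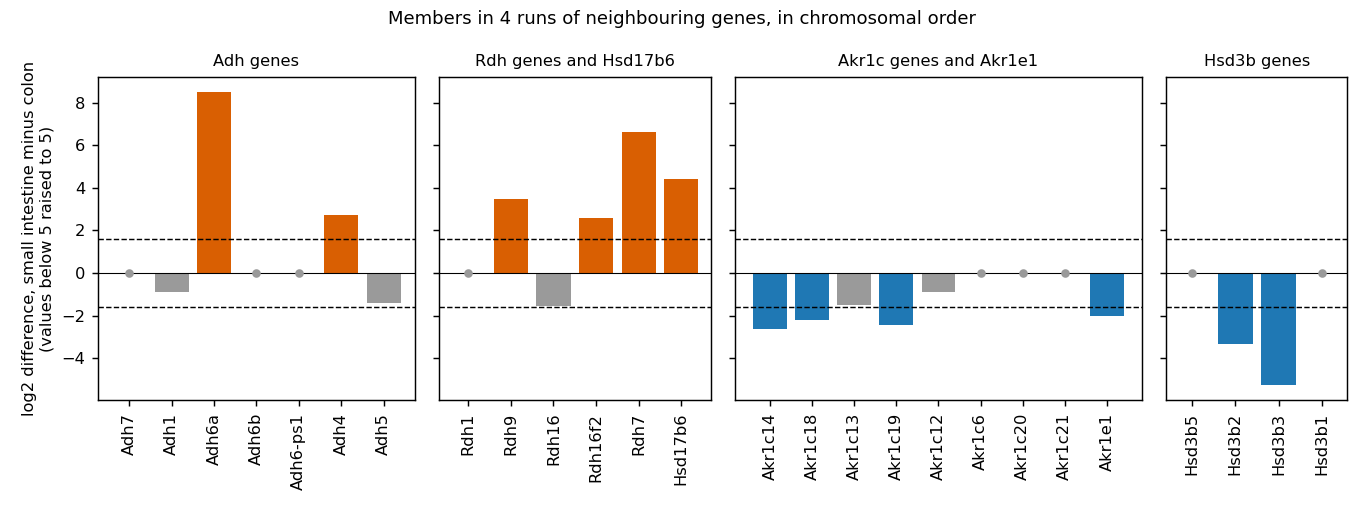
Difference between the small intestine and colon arrays (log2, values below 5 raised to 5) for genes in 4 runs of neighbours, drawn in chromosomal order and not to distance, with dashed lines at 3-fold and a dot for a gene at background on both arrays. In the Rdh run 4 of 6 genes passed 3-fold towards the small intestine, and in the Akr1c run 4 of 9 towards the colon.

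Promoters are shown for the genes past 3-fold in the Adh, Rdh and Hsd3b runs, where within each run those genes read higher in the same tissue. That was also so in the Akr1c run, but its genes past 3-fold are not printed. The RefSeq promoter table (GRCm38.p6) held 59 of the 74 genes and 18 of the 19 past 3-fold, Hsd17b2 being the one not matched. Printed are the 100 bases before the start farthest upstream, 5′ to 3′ on the gene's strand. Capitals mark matches to any of 6 motifs, which were chosen after the values were seen and searched on both strands with overlaps allowed. For the TATA box the letters TATAAA were used. A part of the HNF1 site was given by GTTAAT. For HNF4, a nuclear receptor of gut and liver, the letters searched were CAAAGTCCA. The GATA factors were represented by AGATAA. For CDX2, a homeobox factor of intestinal epithelium, TTTATNG was searched. The antioxidant response element, a site for electrophile response, was entered as TGACNNNGC.
Adh6a (chr3:138313186-138313285, plus strand): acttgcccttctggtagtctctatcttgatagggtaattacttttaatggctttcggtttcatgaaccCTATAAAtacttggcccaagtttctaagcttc
Adh4 (chr3:138415397-138415496, plus strand): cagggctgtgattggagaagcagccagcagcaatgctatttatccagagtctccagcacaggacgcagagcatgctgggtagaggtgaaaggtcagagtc
Rdh9 (chr10:127776305-127776404, plus strand): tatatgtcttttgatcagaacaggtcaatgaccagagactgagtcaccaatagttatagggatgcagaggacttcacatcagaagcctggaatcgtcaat
Rdh16f2 (chr10:127866376-127866475, plus strand): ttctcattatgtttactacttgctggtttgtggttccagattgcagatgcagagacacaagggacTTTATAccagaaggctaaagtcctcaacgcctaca
Rdh7 (chr10:127889248-127889347, minus strand): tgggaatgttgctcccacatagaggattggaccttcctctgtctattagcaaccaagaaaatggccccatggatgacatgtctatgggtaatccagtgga
Hsd17b6 (chr10:128007612-128007711, minus strand): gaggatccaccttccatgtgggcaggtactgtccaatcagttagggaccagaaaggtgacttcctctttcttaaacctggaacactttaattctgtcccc
Hsd3b2 (chr3:98724544-98724643, minus strand): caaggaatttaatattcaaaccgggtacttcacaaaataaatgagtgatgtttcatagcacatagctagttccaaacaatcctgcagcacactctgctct
Hsd3b3 (chr3:98763129-98763228, minus strand): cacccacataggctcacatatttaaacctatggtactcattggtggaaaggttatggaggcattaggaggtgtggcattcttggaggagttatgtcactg

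In these windows Adh6a holds a TATAAA whose first base lies 31 bases before the start, overlapped by a CDX2 match on the opposite strand, and Rdh16f2 holds 1 on the opposite strand. Over the 250 bases before the start, TATAAA was present in 13% of 27025 promoters, in 2 of 11 of the genes higher in the small intestine and in 1 of 7 of those higher in the colon. GATA matches stood in 10.2% of all promoters, in 2 of the 11 and in 3 of the 7 (Hsd3b3, Akr1c19 and Akr1e1). The CDX2 letters were also in 10.2% of all, and in 1 gene of each group. The antioxidant response letters were in 10.1% of all, in 2 of the 11 and 0 of the 7. For HNF1 (6.54% of all) and HNF4 (0.377% of all) neither group held a match. A match of letters is a description and not a measured site.

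Akr1c13 and Akr1c12 are printed apart because their promoters are nearly alike. Over 250 bases they were 92.5% identical, while the other 58 pairs aligned within the runs were 37.9% to 59% identical. Capitals mark bases of each that are not matched in the other.
Akr1c13 (chr13:4191087-4191186, plus strand): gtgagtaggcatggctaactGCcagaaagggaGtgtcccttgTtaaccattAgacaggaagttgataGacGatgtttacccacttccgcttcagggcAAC
Akr1c12 (chr13:4279400-4279499, minus strand): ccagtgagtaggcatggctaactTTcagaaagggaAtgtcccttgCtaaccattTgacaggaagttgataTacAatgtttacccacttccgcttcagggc

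Both genes of this pair were above background on both arrays and leaned to the colon, as given above. The promoters of Hsd3b2 and Hsd3b3 were 46.6% identical and those of Rdh16f2 and Rdh7 43.4%, both inside the range of the other pairs. Whether likeness of promoters goes with the direction of the difference was not tested.

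How far the differences rest on the choice of probe set could be checked for part of the genes. The 74 genes had 122 probe sets, and 42 genes had 1 alone. Between probe sets of the same gene that were above background on both arrays, the differences had a pooled SD of 0.54 on the log2 scale over 3535 genes, and of 0.61 over 13 of the genes described here, against 1.58 for 3-fold. Of the 32 genes with several probe sets the others did not have a pair above background, and where a second set was at background, as for Hsd17b6 (4.44 against 0), the sets differed by more. This is a spread between probe sets on the same arrays and holds no difference between animals. It is not the full technical error either. The 18 probe sets of hybridization spike-in controls differed by -1.52 to 0.33 on the log2 scale, small intestine minus colon. The lowest of these came close to 3-fold towards the colon.

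Of the 19 genes past 3-fold, 7 had several probe sets, and for 2 of these, Aldh9a1 and Aldh16a1, all passed in the same direction. Aldh9a1 read 8.94 in colon and 11.28 in small intestine on its second probe set, and Aldh16a1 6.05 and 8.20. Of the 5 Aldh18a1 probe sets all read higher in the small intestine, by log2 differences of 0.67 to 2.17. The second probe sets of Hsd17b6 (3.27 and 3.07) and Aldh1l1 (3.65 and 3.65) were at background on both arrays, so those differences rest on 1 probe set each.

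**Figure D4:**
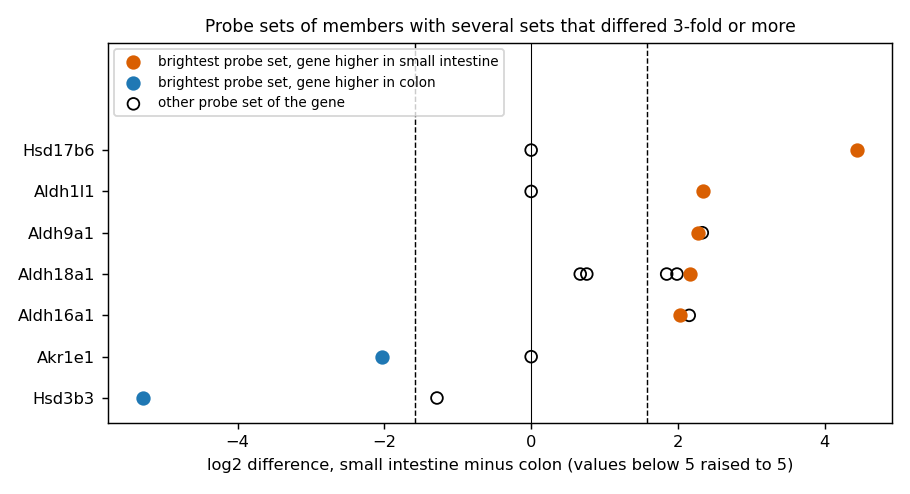
Difference between the small intestine and colon arrays (log2, values below 5 raised to 5) for each probe set of the 7 genes past 3-fold that had several. Filled points are the brightest probe set, which stands for the gene, open points the others, and dashed lines 3-fold. Both probe sets of Aldh9a1 and of Aldh16a1 lie beyond the line, and the second sets of Hsd17b6, Aldh1l1 and Akr1e1 lie at 0.

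Other genes of the same pathways were read from lists. Of 23 measured carbonyl reductases and other short-chain dehydrogenases, 3 passed 3-fold towards the colon and 0 towards the small intestine. Cbr3, a carbonyl reductase, read 11.21 in colon and 6.31 in small intestine (29.9-fold). Hsd11b2, which inactivates glucocorticoids, read 10.53 and 6.58 (15.5-fold), and Sdr42e1 read 8.76 and 6.64 (4.36-fold).

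Of 13 measured genes of steroid synthesis and inactivation, Sult2b1, a steroid sulfotransferase, passed towards the small intestine, with 6.15 in the colon and 10.61 there (22.0-fold), and Hsd11b2 towards the colon. Star, Cyp11a1, Cyp17a1, Cyp21a1 and Cyp11b1, the genes that start steroid synthesis from cholesterol and carry it on, were at background on both arrays. Cyp11a1 came closest to the background level, with 4.51 in colon and 4.98 in small intestine. Of 9 genes of ethanol and aldehyde oxidation, Xdh (7.69 in colon and 10.76 in small intestine, 8.42-fold) and catalase, Cat (10.004 and 11.88, 3.66-fold), passed towards the small intestine and Acss2, which makes acetyl-CoA from acetate, towards the colon (9.80 and 8.05, 3.35-fold). Cyp2e1, the ethanol-oxidising cytochrome, read 5.05 and 6.37 and was under 3-fold.

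The 15 measured genes of NADPH supply and of the response to electrophiles gave 2 past 3-fold, both towards the small intestine, glutathione reductase Gsr (8.76 in colon and 10.76 in small intestine, 4.004-fold) and Srxn1 (10.44 and 12.29, 3.62-fold). The median log2 difference of this list was 0.53, and those of all genes and of the carbonyl reductase, steroid and ethanol lists were 0. These medians cannot be set against each other, since genes at background on both arrays count as 0. Such genes were 1 of 15 in this list and 7178 of 18194 over all genes. In the carbonyl reductase, steroid and ethanol lists they were 4 of 23, 7 of 13 and 3 of 9. The 4 retinoid genes left out by the rule read as follows. Aldh1a1 read 13.31 in colon and 11.49 in small intestine (3.54-fold higher in the colon), and Aldh1a3 5.43 and 9.05 (12.3-fold higher in the small intestine). Aldh1a2 read 4.75 and 5.78, and Dhrs3 7.68 and 6.82, both under 3-fold.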

How the data were processed

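Total RNA was isolated with Qiagen RNeasy, checked on a Bioanalyzer and hybridised to 1 array per tissue. The authors deposited log2 values, already normalized, for 45101 probe sets. GCRMA is named in the labels' processing notes and RMA in the study's methods, without a version. GCRMA lowers dim probe sets and so widens folds against a dim tissue. The values were used as deposited. The number of arrays limits the precision, as do disagreement between probe sets of a gene and the background level.

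Probe sets were named through the platform annotation, matched to the RefSeq table (GRCm38.p6) by identifier. Of 34958 sets of 1 gene, the brightest mean of both arrays stood for each of 18194 genes; 932 sets of several genes were not counted. Values below 5 were raised to 5 before differences, and a gene was called at 3-fold. No test was made, as each tissue had 1 array. Named were all genes past 3-fold, those above background on 1 array, per family the brightest under 3-fold, all with probe sets on both sides of 3-fold and, in other lists, up to 4 past 3-fold. Other genes were named as examples after their values were seen. The members and lists were chosen with earlier results of these data known; the kidney markers and the 6 motifs were added after the values were seen.

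The calling step was checked on simulated arrays with known changes, all set larger than 3-fold and in genes well above background. This checks that the step works as written and not how reliable the calls are. Alternatives were background levels of 4, 6 and none, folds of 2 and 5, quantile normalization, centring on the median, the median over probe sets, and leaving out probe sets marked _x, _s or _a. Python 3.11.15, numpy 2.4.6, pandas 2.3.3, matplotlib 3.10.9 and Biopython 1.88 were used.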

Additional observations from a re-analysis of the deposited data

How the results depend on the processing

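No gene past 3-fold changed direction under any alternative run, but few runs could have turned one. Another background level or fold could not, and quantile normalization and centring moved these differences little. The median over probe sets could alter only the 7 of these genes with several sets. Without shared probe sets the difference of Aldh1l1 went to 0, and Rdh9 and Aldh9a1 were not measured. Below the fold, the log2 difference of Hsd17b12 went from 0.62 to -0.56 with the median over probe sets, and that of Rdh10 from 0.69 to -0.21 there and to -1.11 without shared probe sets. The median over the 74 genes stayed at 0, or 0.02 with no background level. Genes higher in the small intestine numbered 11. They numbered 17 at 2-fold, which 6.95% of all genes passed, and 7 at 5-fold (1.70%). Without shared probe sets they were 7 of 69 measured genes, against 3.05% of 16593 genes, and Aldh18a1, Aldh1l1, Aldh9a1 and Rdh9 were lost. Under the other alternatives they numbered 10 to 12, against 2.46% to 4.23% of all genes. Aldh3b1 was added with a background level of 4 or none, and Rdh16f2 was lost at 6. Genes higher in the colon numbered 8, and 6 to 12 under the alternatives. They were 12 at 2-fold, which 8.14% of all genes passed, 6 at 5-fold (1.43%) and 9 with no background level (4.17%), where Hsd17b14 was added. In the remaining runs they numbered 7 or 8, against 2.17% to 3.87% of the genes measured in each run. Hsd3b3 was lost without shared probe sets, Akr1c18 at a background level of 6 and Akr1e1 with the median over probe sets, which also lost Aldh1l1 in the small intestine. The cause was not tested, except that leaving out shared probe sets changes which probe set stands for a gene and removes some genes. Differences of 1 array per tissue carry no measure of variation between animals, and a level at background gives only a bound. No paired analysis was possible because each tissue had 1 array.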

Other observations

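Probe sets assigned to several genes were left out of all counts. Besides those given with the Hsd3b and Akr1c genes, a probe set of Rdh18-ps and Rdh16 read 6.50 in colon and 3.15 in small intestine, a difference of at least 2.82-fold towards the colon, the side on which the Rdh16 probe set also read higher. A probe set of Rdh5 and Bloc1s1 read 9.27 and 9.31, although the probe set of Rdh5 alone was near background. At background on both arrays were a probe set of Hsd3b4, Gm4450 and Gm10681 and both probe sets of Aldh3b2 and Aldh3b3.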
